A study of Mus musculus with 2 samples.

Results

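The extracellular matrix genes described here are 10 rows of a mouse gene table, chosen by symbol: Postn, Fn1, Sparc, Tnc, Thbs1, Thbs2, Lox, Loxl2, Fbn1 and Dcn. All 10 were found among the 20003 genes listed. The series asked what Hedgehog pathway blockade does to the transcriptome of alternatively activated (M2) macrophages, and messenger RNA was sequenced from 2 libraries. The M2+GANT61 library came from cells given GANT61 at 10 µM, an inhibitor of GLI transcription factors, the last step of Hedgehog signalling. The M2+DMSO library came from cells given the solvent DMSO. Both were labelled RAW 264.7, a single mouse macrophage line, and both had received macrophage colony-stimulating factor (M-CSF) at 20 ng/mL and interleukin 4 (IL-4) at 10 ng/mL. GANT61 or DMSO was added 4 h before IL-4. The time with IL-4 was given as 15 min in one protocol text and 24 h in another, and neither could be matched to these libraries.

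These genes encode proteins that fibroblasts and other stromal cells secrete into connective tissue. Fibronectin and the fibrillins build fibrous scaffolds, decorin binds collagen fibrils and limits their thickness, and lysyl oxidases oxidise lysines of collagen and elastin so that the fibres become cross-linked. Periostin, SPARC, tenascin-C and the thrombospondins are matricellular proteins, which act on cells and on growth factors more than they bear load. Macrophages in wounds and tumours can also make fibronectin and thrombospondin 1, whereas most of the other genes are used as markers of stromal cells.

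The libraries held 57705873 reads (GANT61) and 61632803 reads (DMSO), and with 1 library per group the differences have no replicate check and were not tested. Each ratio below is the GANT61-labelled over the DMSO-labelled library after scaling, with a 95% interval that covers counting error only. The size rule called a gene higher or lower where its ratio was at least 1.5 or at most 1/1.5, its interval excluded 1 and its mean level was at least 1 CPM (counts per 1000000 scaled reads). Of 13939 genes at that mean level, 24.4% were called, 14.1% as higher and 10.3% as lower. The median log2 ratio of these genes was -0.01. Gli1, the usual transcriptional readout of GLI activity, had 7 reads in the GANT61-labelled library and 32 in the DMSO-labelled library. Its mean of 0.317 CPM was below the level that the size rule requires. Ptch1, the Hedgehog receptor and the other readout taken, had a ratio of 1.02 (0.945 to 1.10). At a mean of 22.8 CPM it was neither higher nor lower.

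The label of a macrophage line and the content of the libraries differed, which bears on every value below. All 12 fibroblast markers, all 10 endothelial markers and all 8 epithelial markers had reads and reached 10 CPM in both libraries. Fibroblast markers summed to 8350 CPM in the GANT61-labelled library and 7639 CPM in the DMSO-labelled library. The 14 macrophage markers summed to 7801 and 3709 CPM in the same libraries. CPM is not adjusted for gene length. On the length-adjusted RPKM scale, explained below, the fibroblast markers summed to 1379 (GANT61) and 1320 (DMSO). The macrophage markers were above them on that scale, at 4943 (GANT61) and 2447 (DMSO). Adipocyte markers summed to 1044 CPM in the GANT61-labelled library and 6581 CPM in the DMSO-labelled library. In such bulk samples, fewer cells of a type and less RNA per cell cannot be told apart. Each library is therefore named by its label.

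Fn1, Tnc, Lox, Loxl2 and Fbn1 were higher in the GANT61-labelled library, Postn was lower, and Sparc, Thbs1, Thbs2 and Dcn were neither. The count of 5 higher among 10 stands beside the 14.1% of all genes that were higher, and the count of 1 lower beside the 10.3% that were lower. The median log2 ratio over the 10 genes was 0.37, with a range of -0.71 to 0.94. The genes took 1.12% of all reads in the GANT61-labelled library and 0.890% in the DMSO-labelled library. Fn1 alone took 0.618% (GANT61) and 0.331% (DMSO), a larger difference than that of the 10 genes together.

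**Figure D1:**
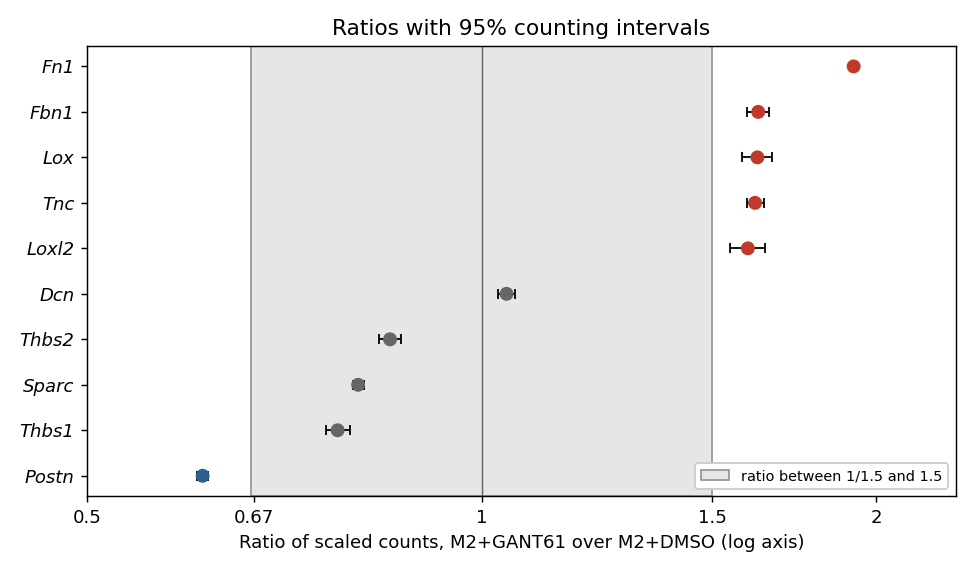
Ratio of scaled counts of each gene, M2+GANT61 over M2+DMSO (log axis), with bars for the 95% counting interval. Red points were higher by the size rule, the blue point lower and grey points neither; Fn1 lies at 1.92, a group of 4 genes between 1.60 and 1.63, and Postn at 0.613.

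Levels are compared between genes on the deposited RPKM scale, reads per kilobase of gene model and per 1000000 reads. The library totals behind these values are not given, and the totals stated above do not reproduce their scale. In the GANT61-labelled library the order was Fn1, Sparc, Postn, Dcn, Tnc, Thbs2, Lox, Thbs1, Fbn1 and Loxl2. In the DMSO-labelled library it was Sparc, Postn, Fn1, Dcn, Tnc, Thbs2, Thbs1, Lox, Fbn1 and Loxl2. The leading 4 genes were all above 200 RPKM in both libraries, and the others were all below 90 RPKM. All 10 stood high among the 20003 genes: the lowest placed, Loxl2, ranked 2353 by RPKM in the GANT61-labelled library and 3688 in the DMSO-labelled library. The sum over the 10 genes was 1697 RPKM in the GANT61-labelled library and 1605 RPKM in the DMSO-labelled library. Fn1 alone made up 589 RPKM (GANT61) and 307 RPKM (DMSO) of these sums. By RPKM, 6 of the 10 genes were higher in the GANT61-labelled library and 4 were lower. The higher genes included Dcn, at an RPKM ratio of only 1.04. Over the 13939 genes the median log2 ratio by RPKM was -0.02, so this split was near that of all genes.

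**Figure D2:**
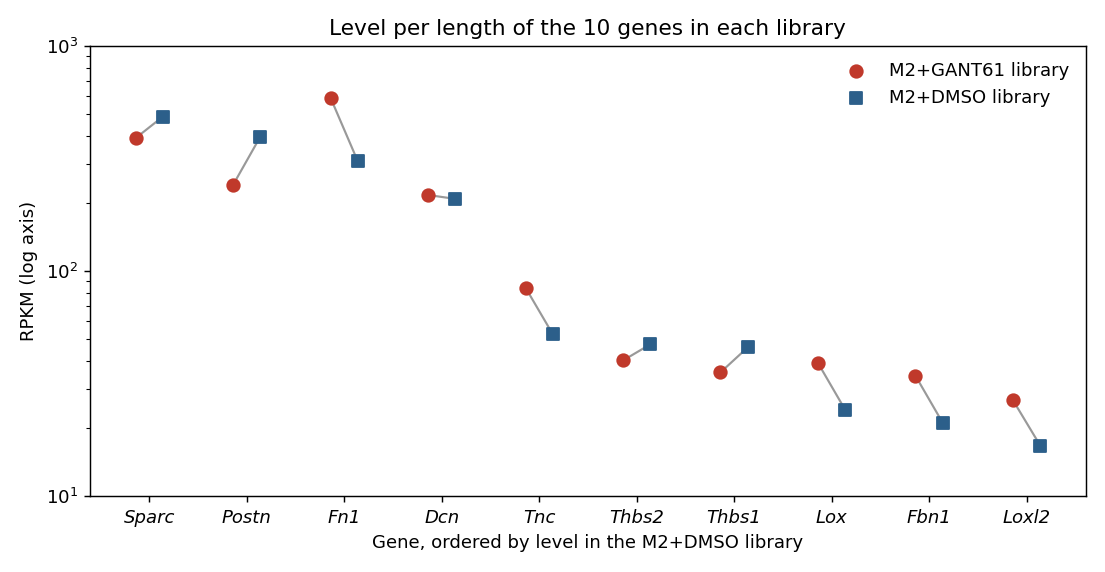
Level of each gene in RPKM (log axis) in the M2+GANT61 library (red circles) and the M2+DMSO library (blue squares), 1 library each, ordered by the level in the M2+DMSO library. Sparc leads in the DMSO-labelled library at 485 RPKM and Fn1 in the GANT61-labelled library at 589 RPKM, while Dcn is nearly level.

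Fn1 encodes fibronectin, a dimeric glycoprotein that cells assemble into fibrils through integrins. The gene lies on chromosome 1 at 71585520 to 71653200, minus strand (GRCm38). It was at 589 RPKM in the GANT61-labelled library and 307 RPKM in the DMSO-labelled library, from 356730 and 204290 reads. Its ratio was 1.92 (1.91 to 1.93), the largest of the 10 genes, and this log2 ratio lay at the 92.4th percentile of the 13939 genes. Fn1 ranked 96 among all genes by RPKM in the GANT61-labelled library and 173 in the DMSO-labelled library. Its exons share 292 bases with Apol7d on the opposite strand, which had 2 and 4 reads in the same libraries.

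Postn encodes periostin, a matricellular protein of collagen-rich tissues that binds fibronectin, tenascin-C and collagen and is induced by transforming growth factor beta (TGF-beta) and interleukins 4 and 13. The gene lies on chromosome 3 at 54361109 to 54391037, plus strand. It was at 241 RPKM in the GANT61-labelled library and 395 RPKM in the DMSO-labelled library, from 57180.5 and 102795 reads. Its ratio was 0.613 (0.606 to 0.619), at the 7.69th percentile of all log2 ratios. Within a library, where scaling plays no part, Fn1 was 2.44 times the level of Postn in the GANT61-labelled library and 0.777 times in the DMSO-labelled library. The order of these 2 genes was thus reversed between the libraries.

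Tnc encodes tenascin-C, a hexameric matricellular protein that is sparse in most adult tissue and abundant in wounds and tumour stroma. It was at 84.4 RPKM in the GANT61-labelled library and 52.4 RPKM in the DMSO-labelled library, a ratio of 1.62 (1.59 to 1.64). Fbn1 encodes fibrillin-1, the backbone of microfibrils that carry elastin and hold latent TGF-beta. It was at 34.3 RPKM in the GANT61-labelled library and 21.2 RPKM in the DMSO-labelled library, a ratio of 1.63 (1.59 to 1.66). Its exons share 2442 bases with Gm9913 on the opposite strand, and without a stated strand setting reads of that stretch cannot be told apart. The same limit holds for shorter stretches on the opposite strand, of 301 bases in Loxl2, 208 in Thbs1, 176 in Tnc and 30 in Lox, shared with genes that are not in the table. With the trend of the ratio on gene length removed, Fbn1 had a ratio of 1.49 and no longer met the rule.

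Lox encodes lysyl oxidase, a secreted copper enzyme that starts covalent cross-linking of collagen and elastin. It was at 39.1 RPKM in the GANT61-labelled library and 24.2 RPKM in the DMSO-labelled library, a ratio of 1.62 (1.58 to 1.67). Loxl2 encodes a family member with scavenger receptor domains that acts on type IV collagen of basement membranes. It was at 26.7 RPKM in the GANT61-labelled library and 16.8 RPKM in the DMSO-labelled library, a ratio of 1.60 (1.55 to 1.65). The counting intervals of Tnc, Fbn1, Lox and Loxl2 overlapped one another. Their levels within a library therefore kept nearly the same proportions: Lox was 1.46 times Loxl2 in the GANT61-labelled library and 1.44 times in the DMSO-labelled library, and Tnc was 2.46 times Fbn1 in the GANT61-labelled library and 2.48 times in the DMSO-labelled library.

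Sparc encodes osteonectin, a collagen-binding glycoprotein needed for orderly fibril assembly. It was at 389 RPKM in the GANT61-labelled library and 485 RPKM in the DMSO-labelled library, a ratio of 0.805 (0.797 to 0.813). Thbs1 encodes thrombospondin 1, an inhibitor of blood vessel growth and an activator of latent TGF-beta that platelets, macrophages and stromal cells release. It was at 35.5 RPKM in the GANT61-labelled library and 45.9 RPKM in the DMSO-labelled library, a ratio of 0.777 (0.760 to 0.793). Thbs2 encodes the related thrombospondin 2, made mainly by fibroblasts. It was at 40.1 RPKM in the GANT61-labelled library and 47.3 RPKM in the DMSO-labelled library, a ratio of 0.851 (0.835 to 0.869). These 3 genes had ratios below 1 that did not reach the rule, and the order of Lox and Thbs1 was opposite in the libraries, with Lox at 1.10 times Thbs1 in the GANT61-labelled library and 0.527 times in the DMSO-labelled library.

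Dcn encodes decorin, a small leucine-rich proteoglycan that coats collagen fibrils and binds TGF-beta. It was at 218 RPKM in the GANT61-labelled library and 209 RPKM in the DMSO-labelled library, a ratio of 1.04 (1.03 to 1.06). Dcn was thus the member nearest to an equal level. The fibrillar collagens among the fibroblast markers lay close to it, with ratios of 1.17 (1.16 to 1.18) for Col1a1, 1.08 (1.07 to 1.09) for Col1a2 and 1.12 (1.11 to 1.12) for Col3a1.

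**Figure D3:**
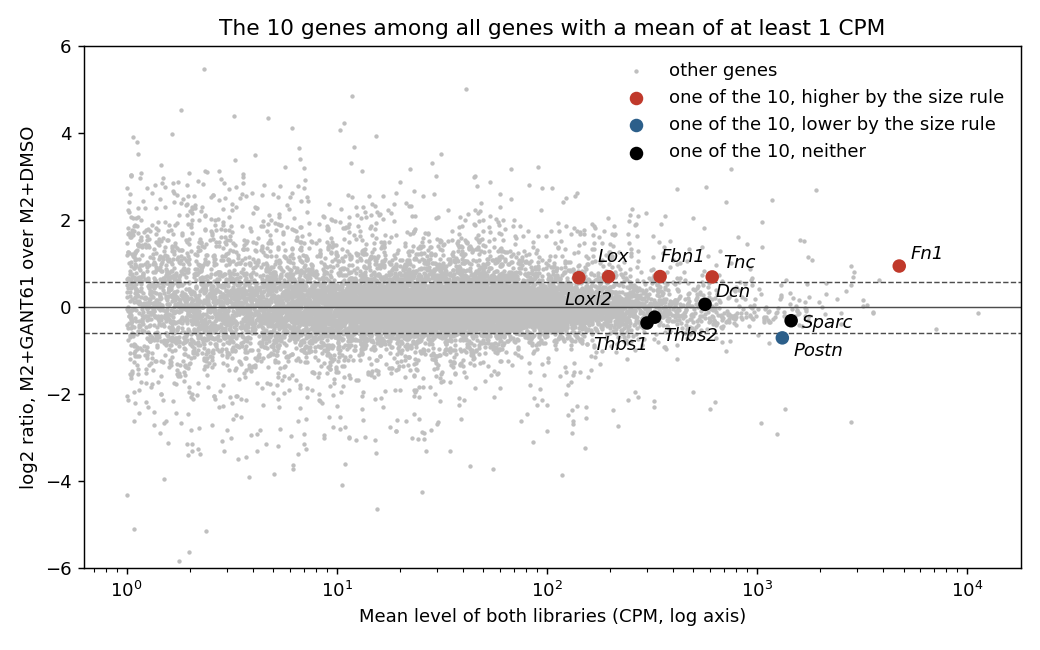
log2 ratio of M2+GANT61 over M2+DMSO against the mean level of both libraries in CPM (log axis) for the genes that averaged 1 CPM or more; dashed lines mark ratios of 1.5 and 1/1.5, and 4 genes lie outside the plotted range. The 10 genes, coloured by the size rule, sit at mean levels from 142 CPM for Loxl2 to 4771 CPM for Fn1.

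Upstream sequence was matched in RefSeq windows (GRCm38.p6) for 5 of the 10 genes: Postn, Sparc, Tnc, Thbs2 and Fbn1. Where a gene had several start sites, only the most downstream one was used, and windows of other sites were not searched. The sites used for Sparc (55420080), Tnc (64046936) and Fbn1 (125506438) lie inside the genes. These genes start at 55423183, 64047015 and 125507993 on the minus strand. The Sparc and Fbn1 windows thus lie wholly, and the Tnc window partly, within the annotated genes. The 250 bases before the start site are shown for Tnc and Fbn1, whose ratios were alike at 1.62 and 1.63, and for Postn, whose ratio of 0.613 lay on the other side. All are written 5′ to 3′ on the gene's strand, and capitals mark matches to any of 6 motifs searched on both strands. The windows are chr4:64046937-64047186 (minus strand) for Tnc, chr2:125506439-125506688 (minus strand) for Fbn1 and chr3:54360857-54361106 (plus strand) for Postn.
Tnc: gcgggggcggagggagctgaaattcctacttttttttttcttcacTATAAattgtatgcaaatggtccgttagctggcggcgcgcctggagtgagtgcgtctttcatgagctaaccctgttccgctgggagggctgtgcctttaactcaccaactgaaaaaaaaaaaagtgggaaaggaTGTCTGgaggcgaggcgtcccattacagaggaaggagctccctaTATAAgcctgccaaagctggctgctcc
Fbn1: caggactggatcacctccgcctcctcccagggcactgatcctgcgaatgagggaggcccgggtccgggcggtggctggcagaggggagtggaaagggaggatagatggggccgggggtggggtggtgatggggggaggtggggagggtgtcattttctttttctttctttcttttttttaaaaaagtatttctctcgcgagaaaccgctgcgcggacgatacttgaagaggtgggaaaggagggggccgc
Postn: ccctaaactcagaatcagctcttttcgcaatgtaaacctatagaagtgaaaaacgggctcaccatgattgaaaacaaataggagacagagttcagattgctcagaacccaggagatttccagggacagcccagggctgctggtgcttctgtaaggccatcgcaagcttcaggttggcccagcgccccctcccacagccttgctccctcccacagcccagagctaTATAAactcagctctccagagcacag

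The TATA motif TATAA stood 27 to 23 bases before the start of Tnc and 26 to 22 bases before that of Postn, and Tnc held another match at 205 to 201 bases. The Thbs2 window held it on the opposite strand, as TTATA, 125 to 121 bases before the start. It occurs in 23.6% of 27025 windows of the same length, 1 per gene. Tnc also held the SMAD-type motif CAGACA, read as TGTCTG on the gene's strand, 71 to 66 bases before the start. That motif is in 17.2% of all windows and was also in those of Sparc, with 1 match, and Thbs2, with 2 matches. None of the 5 windows held the GLI motif GACCACCCA, which is in 0.222% of all windows, the STAT6 motif (TTC and GAA spaced by any 4 bases, 5.91%), the AP-1 motif TGANTCA (6.89%) or the hypoxia motif core ACGTG (16.3%). The Fbn1 window matched none of the 6 motifs and held 59.2% G and C, against 51.2% in Tnc and 52.0% in Postn. No match overlapped another.

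Relatives of the members differed within each family. In the lysyl oxidase family the size rule called 2 of 5 genes higher, namely Lox and Loxl2, and 0 lower, and the median log2 ratio was 0.58. Loxl1, which acts on elastic fibres, had a ratio of 1.10 (1.05 to 1.14) and Loxl3 of 0.936 (0.897 to 0.975). Loxl4, named after its values were seen, had a ratio of 1.49 (1.42 to 1.56), just under the threshold. All 5 enzymes of the family were above 7 RPKM in both libraries.

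Among 8 thrombospondins and tenascins at the level required, the rule called 3 higher and 1 lower, at a median log2 ratio of -0.03. Thbs4, a thrombospondin of tendon and muscle, was at 19.7 RPKM in the GANT61-labelled library and 2.49 RPKM in the DMSO-labelled library, a ratio of 7.94 (7.31 to 8.65). Tnn, tenascin-N, had a ratio of 2.13 (1.96 to 2.31). Comp, the thrombospondin family member of cartilage, was at 0.350 RPKM in the GANT61-labelled library and 0.909 RPKM in the DMSO-labelled library, a ratio of 0.388 (0.284 to 0.520). The higher genes of this list thus included both a tenascin and a thrombospondin, while Thbs1 and Thbs2 were neither.

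Among 9 small leucine-rich proteoglycans 1 was called higher and 3 lower, and the median log2 ratio was -0.16. Bgn, biglycan, the close relative of decorin, was at 222 RPKM in the GANT61-labelled library and 135 RPKM in the DMSO-labelled library. Its ratio was 1.66 (1.63 to 1.68), against 1.04 for Dcn. The lower genes were Ecm2 at 0.471 (0.401 to 0.552), Aspn, asporin, at 0.492 (0.460 to 0.525) and Fmod, fibromodulin, at 0.533 (0.466 to 0.609). These 3 were below 16 RPKM in both libraries.

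The rule split the 17 elastic fibre and microfibril genes into 4 higher, 5 lower and 8 neither, around a median log2 ratio of -0.24. Emilin2 had a ratio of 3.53 (3.42 to 3.65), Fbln2, fibulin-2, of 2.36 (2.31 to 2.40) and Emilin1 of 2.07 (1.97 to 2.17). Ltbp3, which tethers latent TGF-beta to microfibrils, had a ratio of 0.441 (0.433 to 0.450). Eln, elastin itself, and Fbn2, the second fibrillin, both named after their values were seen, had ratios of 0.571 (0.546 to 0.598) and 0.489 (0.413 to 0.576). The higher Fbn1 thus stood beside a lower Fbn2 and a lower elastin, at levels of 10.5 RPKM in the GANT61-labelled library and 18.5 RPKM in the DMSO-labelled library for Eln.

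Fibronectin, SPARC and other matricellular genes made a list of 17, of which 4 were called higher and 4 lower around a median log2 ratio of -0.15. Spp1, osteopontin, a secreted phosphoprotein that macrophages make, was at 1137 RPKM in the GANT61-labelled library and 395 RPKM in the DMSO-labelled library, a ratio of 2.89 (2.86 to 2.92). Tgfbi, a paralogue of periostin, had a ratio of 2.85 (2.79 to 2.91), opposite in direction to the 0.613 of Postn. Nov, a CCN family protein, had a ratio of 1.86 (1.71 to 2.03). Smoc1, a SPARC-related calcium-binding protein, had a ratio of 0.139 (0.122 to 0.158). Sparcl1, the closest relative of SPARC and named after its values were seen, had a ratio of 0.587 (0.574 to 0.601).

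Enzymes that process or modify collagen were called higher in 6 of 18 cases and lower in 0, and their median log2 ratio was 0.37. The prolyl hydroxylase subunits P4ha3 and P4ha1 had ratios of 2.24 (2.03 to 2.48) and 2.20 (2.13 to 2.27). Plod1, a lysyl hydroxylase that prepares collagen lysines for the cross-links that lysyl oxidases start, had a ratio of 1.80 (1.74 to 1.86). The other lysyl hydroxylases, Plod2 and Plod3, named after their values were seen, were at 1.59 (1.52 to 1.67) and 1.53 (1.49 to 1.57). Pcolce2, an enhancer of procollagen cleavage, was at 1.72 (1.61 to 1.83). Bmp1, the protease that cleaves procollagen and activates pro-lysyl oxidase, was likewise named after its value was seen, at 1.05 (1.03 to 1.07).

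Cell-surface receptors of these glycoproteins were called higher in 8 of 16 cases and lower in 1, at a median log2 ratio of 0.58. Stab1, a macrophage scavenger receptor that takes up SPARC, was at 41.7 RPKM in the GANT61-labelled library and 11.2 RPKM in the DMSO-labelled library, a ratio of 3.74 (3.65 to 3.85). Itga9, an integrin subunit that binds tenascin-C, had a ratio of 3.23 (3.06 to 3.41), and Itgb3, a subunit of receptors for fibronectin and periostin, of 2.26 (2.14 to 2.38). The lower gene was Cd36, a thrombospondin receptor that also carries fatty acids into adipocytes, at 0.226 (0.220 to 0.232). TGF-beta ligands, receptors and targets numbered 15, of which 2 were called higher and 2 lower, at a median log2 ratio of -0.09. Tgfbr2, a receptor subunit, had a ratio of 1.52 (1.49 to 1.55), while the ligand Tgfb3 had a ratio of 0.340 (0.328 to 0.353) and Ltbp1 of 0.601 (0.583 to 0.620).

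**Figure D4:**
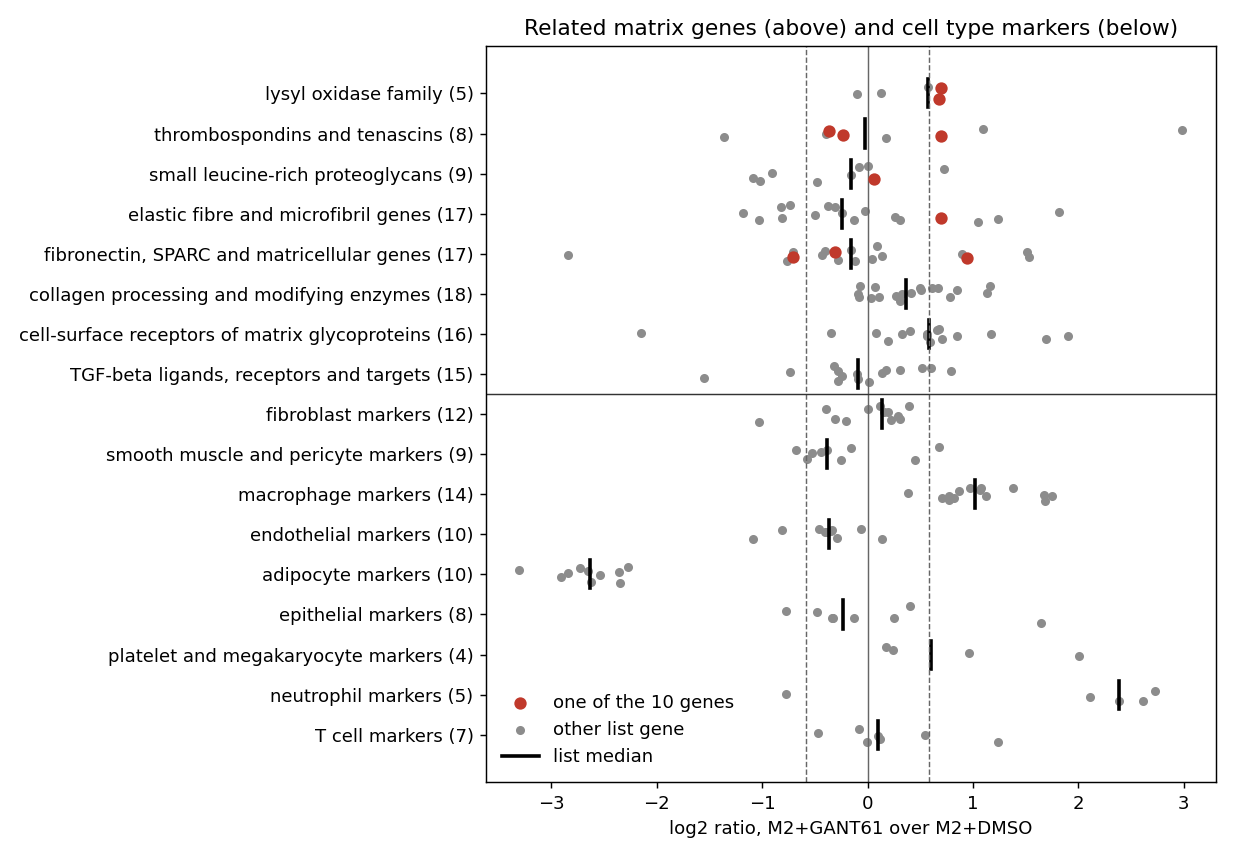
log2 ratio of M2+GANT61 over M2+DMSO for each gene averaging 1 CPM or more in 8 lists of related matrix genes (above the line) and 9 lists of cell type markers (below it), with the number of genes in brackets. Black ticks are list medians, red points are the 10 genes and dashed lines mark ratios of 1.5 and 1/1.5; macrophage markers have a median of 1.02, fibroblast markers of 0.14 and adipocyte markers of -2.64.

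Cell type markers differed between the libraries in several ways, and the part of cell content in the ratios above was not tested. Fibroblast markers, none of them among the 10 genes, were called higher in 0 of 12 cases and lower in 1, and their log2 ratios ran from -1.03 to 0.40 around a median of 0.14. The lower one was Dpt, dermatopontin, at 0.489 (0.475 to 0.504). The log2 ratios of Fn1 at 0.94, Fbn1, Lox, Tnc and Loxl2 at 0.68 to 0.70 all lay above the range of the fibroblast markers, and that of Postn, at -0.71, lay below all of these markers except Dpt, the next lowest being Fap at -0.40. Among 9 smooth muscle and pericyte markers 1 was called higher and 1 lower; their median log2 ratio was -0.38 and they summed to 635 CPM in the GANT61-labelled library and 794 CPM in the DMSO-labelled library.

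Macrophage markers were called higher in 13 of 14 cases and lower in 0, at a median log2 ratio of 1.02, and Cd68 and Csf1r had ratios of 3.36 (3.26 to 3.47) and 2.61 (2.57 to 2.65). All 10 genes lay below that median, with Fn1 the highest at 0.94 and Thbs1 at -0.36. The part of macrophage content in these ratios was not tested. Of the 8 neutrophil markers 5 reached the level required, 4 of them called higher and 1 lower, and all 8 summed to 704 CPM in the GANT61-labelled library and 145 CPM in the DMSO-labelled library. Ltf made up 403 CPM (GANT61) and 93.1 CPM (DMSO) of these sums, and S100a9 184 and 27.8 CPM. The lower marker was Ngp, at 0.584 (0.424 to 0.792). Below the level required, Mpo (22 and 39 reads) and Elane (3 and 6 reads) had fewer reads in the GANT61-labelled library, and Ly6g (31 and 13 reads) had more. Platelet and megakaryocyte markers, of interest because platelets carry thrombospondin 1, reached the level required in 4 of 8 cases, of which 2 were called higher and 0 lower, and all 8 summed to 89.3 CPM in the GANT61-labelled library and 27.7 CPM in the DMSO-labelled library. Pf4, a chemokine that macrophages make too, made up 79.8 CPM and 19.8 CPM of these sums, at a ratio of 4.03 (3.78 to 4.29).

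The rule called 10 of 10 adipocyte markers lower, at a median log2 ratio of -2.64. Endothelial markers were called higher in 0 of 10 cases and lower in 2; their median log2 ratio was -0.37 and they summed to 671 CPM in the GANT61-labelled library and 798 CPM in the DMSO-labelled library. Among 8 epithelial markers 1 was called higher and 1 lower; their median log2 ratio was -0.23 and they summed to 3245 CPM in the GANT61-labelled library and 3701 CPM in the DMSO-labelled library. The 7 T cell markers in the table had 1 called higher and 0 lower; their median log2 ratio was 0.10 and they summed to 189 CPM in the GANT61-labelled library and 167 CPM in the DMSO-labelled library. No marker of any of the 9 cell type lists was at 0 reads in either library.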

How the data were processed

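RNA was column-purified before Illumina sequencing, per the labels. The authors deposited unnormalized estimated counts per gene and, as a second table, RPKM values for the same genes. In the deposited counts, 29.5% (GANT61) and 29.8% (DMSO) of the values were not whole, so these expected counts were rounded. Per the submitters' processing notes, the builds were mm10 and hg19, and the tools included Partek, cutadapt, STAR, SAMtools and HISAT2; their roles and versions, the annotation and the strand setting are not given in the sources used here. Columns were tied to libraries by the treatment in their names, although their numbers differed from those in the titles.

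Library scaling used edgeR 4.0.16 (TMM factors; R 4.3.3), with a prior count of 0.5. Intervals are exact Clopper-Pearson (scipy 1.17.1), and cover counting error only. Duplicate reads of 1 molecule could not be recognised, so the intervals may be too narrow even for that error. A count of 0 allowed up to 3 counts, 0.0520 CPM (GANT61) and 0.0487 CPM (DMSO). The code for ratios and intervals was checked on simulated counts with known folds. Alternatives used DESeq2 1.42.0 and a lowess trend (statsmodels 0.14.6). With 2 libraries no likeness of pattern could be measured.

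The 10 genes and the 17 lists, with 192 distinct genes of which 1 was absent from the table, were chosen with earlier results of these data known, and the motifs after the windows were seen. The text names all 10 genes. From each list of related matrix genes it names up to 4 other called genes, those with the largest absolute log2 ratios. Where none was called, it names 2 abundant ones. A gene that the rule names is not reported here. Genes outside this rule, cell type markers included, were chosen after their values were seen. Lum and Mfap5 are in a matrix list and the fibroblast list. Ltbp1 is in the elastic fibre and TGF-beta lists, and is counted as lower in both. Ctgf is in the matricellular and TGF-beta lists. Positions use GENCODE M21 and RefSeq (GRCm38).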

Additional observations from a re-analysis of the deposited data

How the results depend on the processing

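No paired analysis was possible because each group held 1 library, and no replicate could be left out. With a fold threshold of 2, 0 of the 10 genes were higher and 0 lower. Of the 13939 genes at the mean level required, 972 were higher and 595 lower, so most genes were not called at this threshold either. Among the list genes, 26 were higher and 20 lower. Over 7 other scalings and settings the ratios of the 10 genes kept their direction. The ratio of Fn1 ranged from 1.79 to 1.92, of Tnc from 1.52 to 1.62, of Lox from 1.56 to 1.62, of Loxl2 from 1.53 to 1.60, of Fbn1 from 1.49 to 1.63 and of Postn from 0.594 to 0.613. The lowest values of the 5 higher genes came with the length trend removed, where Fbn1 lost its call; the other 9 genes kept theirs in all 7. Of 70 such ratios, 44 stayed within the counting interval, 26 moved outside it and 0 changed direction. Unrounded counts and a prior count of 2 could hardly move genes with this many reads, so the ratios from these settings add little to the 44. Scaling by total counts shifted the median of all genes the most, by -0.04 on the log2 scale. Without replicates, the intervals understate the spread between cultures by an unknown amount.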

Other observations

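Some relatives of the 10 genes lay below the mean of 1 CPM and entered no list count. Kera, keratocan, a proteoglycan of the cornea, had 11 reads in the GANT61-labelled library and 112 in the DMSO-labelled library, a ratio of 0.113 (0.0525 to 0.201). Omd, osteomodulin, had 31 and 63 reads in the same libraries, a ratio of 0.546 (0.341 to 0.846). Epyc, epiphycan, had 23 and 7 reads, a ratio of 3.45 (1.503 to 9.99). Tnr, tenascin-R of the nervous system, had 0 reads in the GANT61-labelled library and 6 in the DMSO-labelled library.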
